A study of Mus musculus with 6 samples.

Results

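The genes described are those of the cytosolic ribosomal proteins, the proteins that build the large and small subunits of the ribosome outside mitochondria. They were chosen by name: a gene counted if its symbol was Rpl or Rps followed by a number, or Rplp0, Rplp1, Rplp2 or Rpsa, and if a gene probe of the array carried one of its RefSeq transcripts. Pseudogenes and the Rps6k kinases were left out. The rule found 87 genes with 177 probes, out of 20659 genes with a symbol and 39429 gene probes on the array. By name, 46 genes belong to the large subunit and 31 to the small subunit, 9 are paralogues or retrogenes of such genes, and Rps19bp1 is a binding partner of Rps19 that the name rule takes in. Rps30 is encoded by the fusion gene Fau, which the rule does not take in and which is given with the related genes further on.

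The cells were mouse podocytes, the kidney epithelial cells that wrap the glomerular capillaries, immortalised with a temperature-sensitive SV40 T antigen. All had received a lentiviral pGIPZ construct, and all were expanded at 33 °C and then kept for 10 days at 37 °C, where they differentiate. The groups are shTug1 clone 3 and shTug1 clone 2, separate clones with a short hairpin that targets Tug1, a long noncoding RNA, and shControl, with a scrambled hairpin. Each group has 2 biological replicates per the labels, and each clone is 1 line, so differences between clones include clonal variation. RNA was hybridised to one-colour arrays, 1 array per culture and 6 in all.

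Ribosomal proteins are made in near-equal numbers and assemble on ribosomal RNA in the nucleolus, so their mRNAs are among the most abundant and most evenly expressed of a cell. Many of these mRNAs start with a C followed by a run of pyrimidines, the feature through which mTORC1 and Larp1 control their translation. Several of the proteins also act outside the ribosome: Rpl5, Rpl11 and Rps7 bind Mdm2 when ribosome assembly is disturbed, and mutations of Rps19 and other members cause Diamond-Blackfan anaemia in humans.

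Promoter sequences are given for 6 genes on which the results below turn: Rps7 and Rpl7l1, which rose, Rpl15 and Rps6, whose listed starts carry the pyrimidine run, and Rpl22l1 and Rps3, which had the largest falls of the comparisons of both clones and of clone 2. Each is the RefSeq window of build GRCm38.p6 from 100 bases before to 15 bases after the listed transcription start, 5′ to 3′ on the strand of the gene. Capitals mark the letters CCGGAAG, an ETS-family core searched on both strands and so also shown as CTTCCGG, and the run of pyrimidines that begins with C at the listed start.
Rps7, chr12:28635939-28636053, minus strand: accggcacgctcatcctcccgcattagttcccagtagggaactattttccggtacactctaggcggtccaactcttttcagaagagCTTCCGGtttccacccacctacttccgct
Rpl7l1, chr17:46782642-46782756, minus strand: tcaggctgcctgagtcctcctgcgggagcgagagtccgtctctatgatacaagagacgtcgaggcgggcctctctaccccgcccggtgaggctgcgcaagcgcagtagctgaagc
Rpl15, chr14:18270972-18271086, minus strand: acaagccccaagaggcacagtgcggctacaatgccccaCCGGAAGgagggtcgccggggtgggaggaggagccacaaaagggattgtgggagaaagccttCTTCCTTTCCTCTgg
Rps6, chr4:86857353-86857467, minus strand: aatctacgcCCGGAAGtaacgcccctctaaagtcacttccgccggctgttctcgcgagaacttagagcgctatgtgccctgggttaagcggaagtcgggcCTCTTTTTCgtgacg
Rpl22l1, chr3:28805408-28805522, plus strand: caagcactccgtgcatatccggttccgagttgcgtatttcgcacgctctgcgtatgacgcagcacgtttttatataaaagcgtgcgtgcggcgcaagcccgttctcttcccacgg
Rps3, chr7:99483695-99483809, minus strand: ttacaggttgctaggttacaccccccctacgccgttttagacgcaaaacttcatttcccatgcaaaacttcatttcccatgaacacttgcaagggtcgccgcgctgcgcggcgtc

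The RefSeq table held a window for 67 of the 87 genes. A C at the listed start followed by at least 4 pyrimidines was found for 14 of these 67 genes, or 20.9%, and for 3.01% of all 27025 genes of the table. CCGGAAG stood on either strand of the 300 bases around the start in 26 of the 67 genes, or 38.8%, against 9.93% of all genes. Both features were thus more frequent among ribosomal protein genes, but neither, as counted here, divided them by change. A pyrimidine run that began just past the listed start, as in Rpl22l1, was not counted. The genes without the feature thus include such a run. On the log2 scale, the median fold change of the mean of the shTug1 clones over shControl was -1.08 for the 14 tested genes with the pyrimidine start and -1.18 for the 51 without it. It was -1.09 for the 25 tested genes with CCGGAAG and -1.19 for the 40 without it.

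Across the series, between 58.2% and 68% of gene probes lay well above background per array. The targeted Tug1 went against the label of clone 2: on the log2 scale relative to the 75th percentile of the array, it read -3.10 and -3.23 on the arrays labelled shTug1 clone 3, -1.86 and -1.88 on those labelled shTug1 clone 2, and -2.88 and -2.49 on the shControl arrays. The mean of the clones lay 0.16 above shControl and did not pass (SE 0.29, limma adjusted p = 0.65), with both clone 2 arrays above both shControl arrays. Against shControl, clone 3 lay at -0.48 (limma adjusted p = 0.321) and clone 2 at 0.81 (limma adjusted p = 0.0798), so neither clone passed. Groups are therefore called by their labels, and whether the hairpin lowered Tug1 is not shown by this probe. Of 10 podocyte markers, 9 were above background on all 6 arrays, Nphs1 and Wt1 among them, and Podxl was not. Their summed levels relative to the 75th percentile ran from 12.5 to 17.3 in clone 3, stood at 23.1 in clone 2, and ran from 36.5 to 42.3 in shControl. Of the markers of other cell types, Emcn, Tie1, Des, Pdgfra and Slc12a1 were above background on no array. Above background on all 6 arrays were Kdr, Pecam1, Flt1, Acta2, Pdgfrb, Gata3, Pax8, Lrp2, Aqp2, Slc34a1, Itgam, Cd3e and Adgre1. The mean level of Acta2 was 8.27 log2 units, against 3.94 for Cd2ap, the brightest tested podocyte marker. Wt1 and Nphs1 were dim, at -2.90 and -3.79, so the markers do not single out podocytes. The mesangial and stromal sum ran from 236 to 316 in clone 3, 212 to 222 in clone 2 and 550 to 561 in shControl, so these sums were also highest in shControl. Sums were taken on the unlogged scale, so Acta2 makes up most of this one. Relative to the 75th percentile Acta2 changed by -1.20 in the mean of the clones, and with quantile normalization by 0.03, which did not pass (limma adjusted p = 0.9). The tubular and parietal sum ran from 9.45 to 11.6 in clone 3, was at least 11.8 on both clone 2 arrays, and ran from 14.6 to 22 in shControl. The immune sum ran from 2.96 to 3.76 in clone 3, 2.42 to 2.57 in clone 2 and 7.68 to 12.8 in shControl. The endothelial sum ran from 1.33 to 1.44 in clone 3, 1.05 to 1.06 in clone 2 and 1.55 to 2.97 in shControl, so each of these sums too was highest in shControl. All of the sums are relative to the 75th percentile, which was itself lowest on the shControl arrays. The part of cell type in the results below was not tested. Both shControl arrays carried one scan date and the 4 arrays labelled shTug1 another, so scan and hairpin cannot be told apart, while clone 3 and clone 2 share a scan.

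Of the 87 genes, 85 were tested, and 84 of these were well above background on all 6 arrays. Rpl10l and Rpl39l, paralogues known for expression in testis, were not tested, because their probes were not above background on both arrays of any group. Among tested genes, 80 of the 85 were in the brightest 10% of genes by mean signal. The exceptions at the dim end were the retrogene Rps23rg1 and the paralogues Rpl7l1 and Rpl3l, the last of them above background on 5 arrays.

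**Figure D1:**
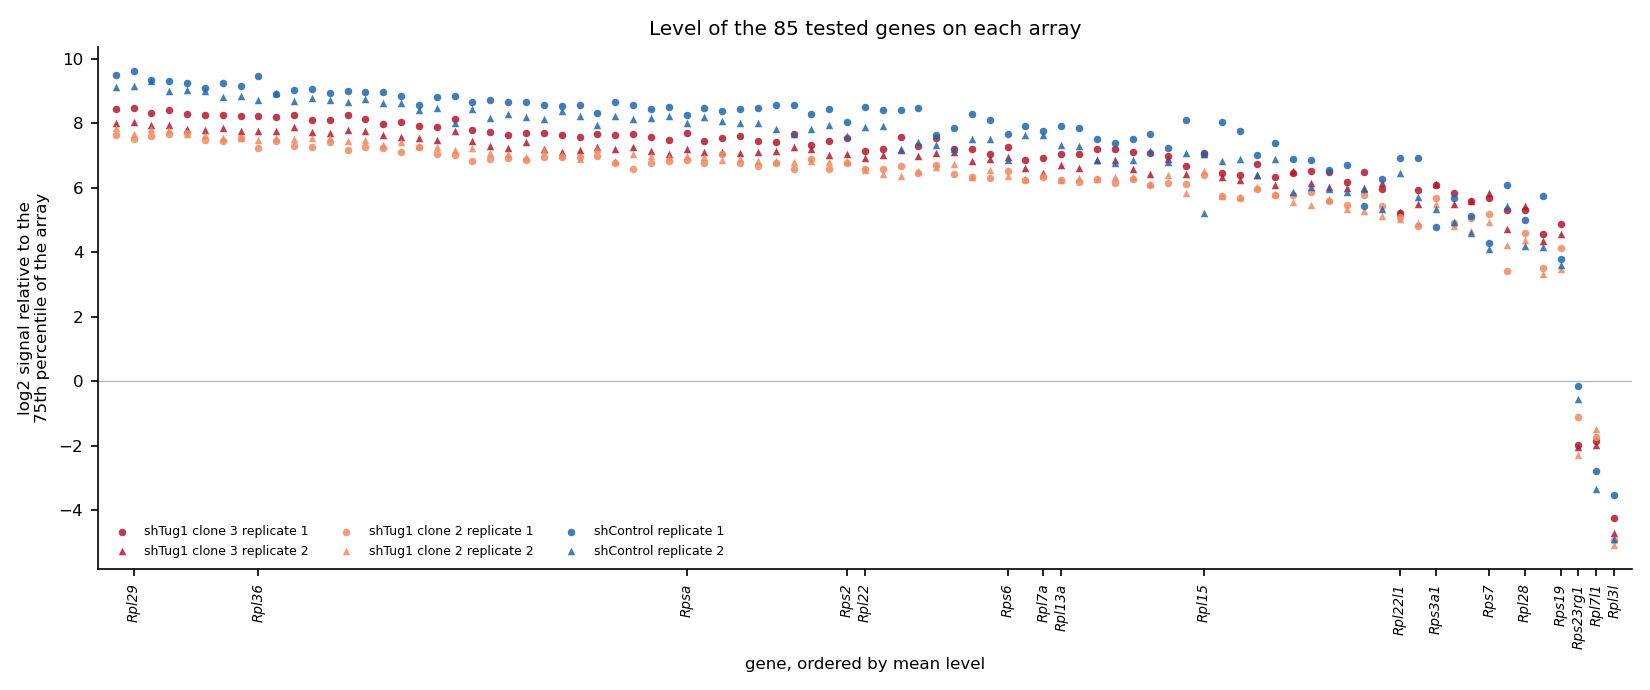
Log2 signal relative to the 75th percentile of the array (vertical axis) for each of the 85 tested ribosomal protein genes (horizontal axis, ordered by mean level); points are single arrays, coloured by group and shaped by replicate, with some genes named on the axis. For 58 genes all 4 arrays labelled shTug1 lie below both shControl arrays; Rps7, Rpl7l1 and Rps3a1 show the opposite order.

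The processed signal of the median ribosomal protein gene was 97620 and 111300 on the clone 3 arrays, 101900 and 101500 on the clone 2 arrays, and 103200 and 73820 on the shControl arrays. Before scaling, the groups thus overlapped, and shControl replicate 2 was the lowest array. The 75th percentile of gene spots, to which arrays were scaled, was 569.2 and 831.6 in clone 3, 1055 and 949.3 in clone 2, and 324.3 and 363.3 in shControl. It was lowest on both shControl arrays. Relative to it, the median ribosomal protein gene lay at 7.42 and 7.06 log2 units in clone 3, 6.59 and 6.74 in clone 2, and 8.31 and 7.67 in shControl. The 2 clones and shControl did not overlap on this scale, and shControl was the highest. The other genes of the brightest 10% had the same order, with medians of 5.74 and 5.57 in clone 3, 5.10 and 5.05 in clone 2, and 6.74 and 5.90 in shControl.

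**Figure D2:**
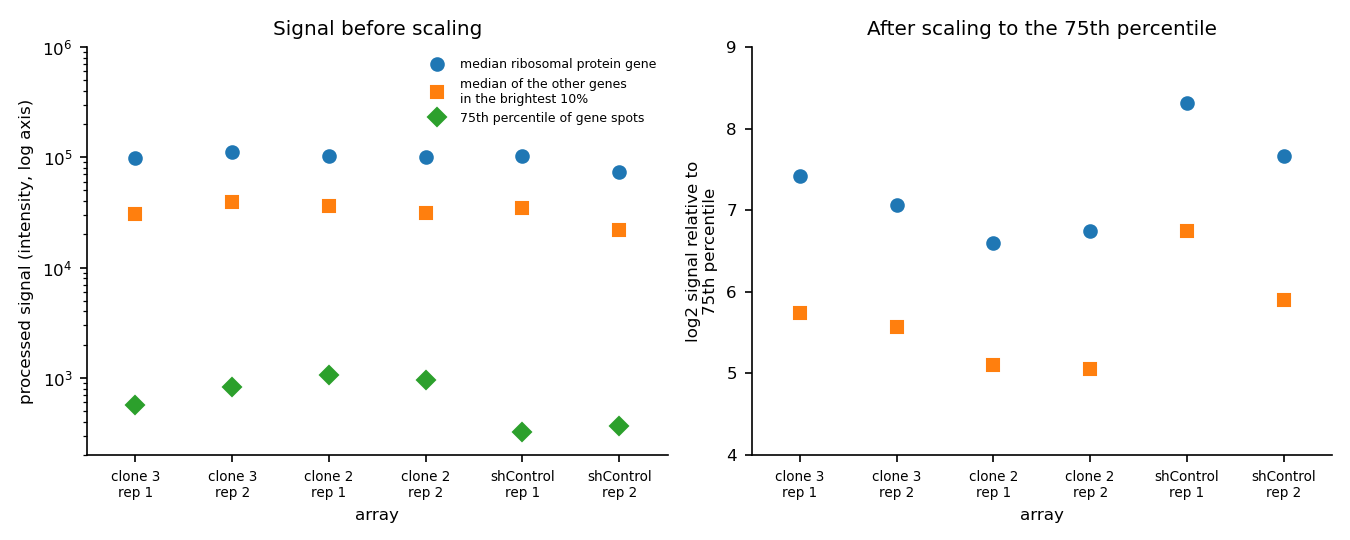
Left, processed signal (log axis) of the median ribosomal protein gene, of the median other gene in the brightest 10% of genes and of the 75th percentile of gene spots on each of the 6 arrays; right, the first 2 of these as log2 relative to the 75th percentile. The 75th percentile is lowest on the shControl arrays (324.3 and 363.3), and both medians on the right are highest there (8.31 and 7.67 for ribosomal protein genes).

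Relative to the 75th percentile, most ribosomal protein genes were lower on the arrays labelled shTug1. For the mean of both clones against shControl, 56 of 85 genes fell, 2 rose (Rps7 and Rpl7l1) and 27 did not pass the test (limma, Benjamini-Hochberg over 21473 genes, threshold 0.05). Of all genes tested, 30.4% fell and 10.2% rose. The median log2 fold change was -1.14 for ribosomal protein genes and -0.64 for all genes. In the brightest 10% of genes, 55 of 80 ribosomal protein genes fell, or 68.8%, with a median of -1.16, and 1212 of the 2068 other genes fell, or 58.6%, with a median of -1.10. The count of 56 depended on single arrays: it was 0 without either clone 3 array, 18 without clone 2 replicate 1, 35 without clone 2 replicate 2, 29 without shControl replicate 1 and 72 without shControl replicate 2. The share of all genes that fell moved with it: 3.09% and 0.508% without clone 3 replicate 1 or 2, 18.8% without clone 2 replicate 1, 21.7% without clone 2 replicate 2, 15.9% without shControl replicate 1 and 51.5% without shControl replicate 2. In RNA from whole cultures, fewer cells with a transcript and less transcript per cell cannot be told apart.

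**Figure D3:**
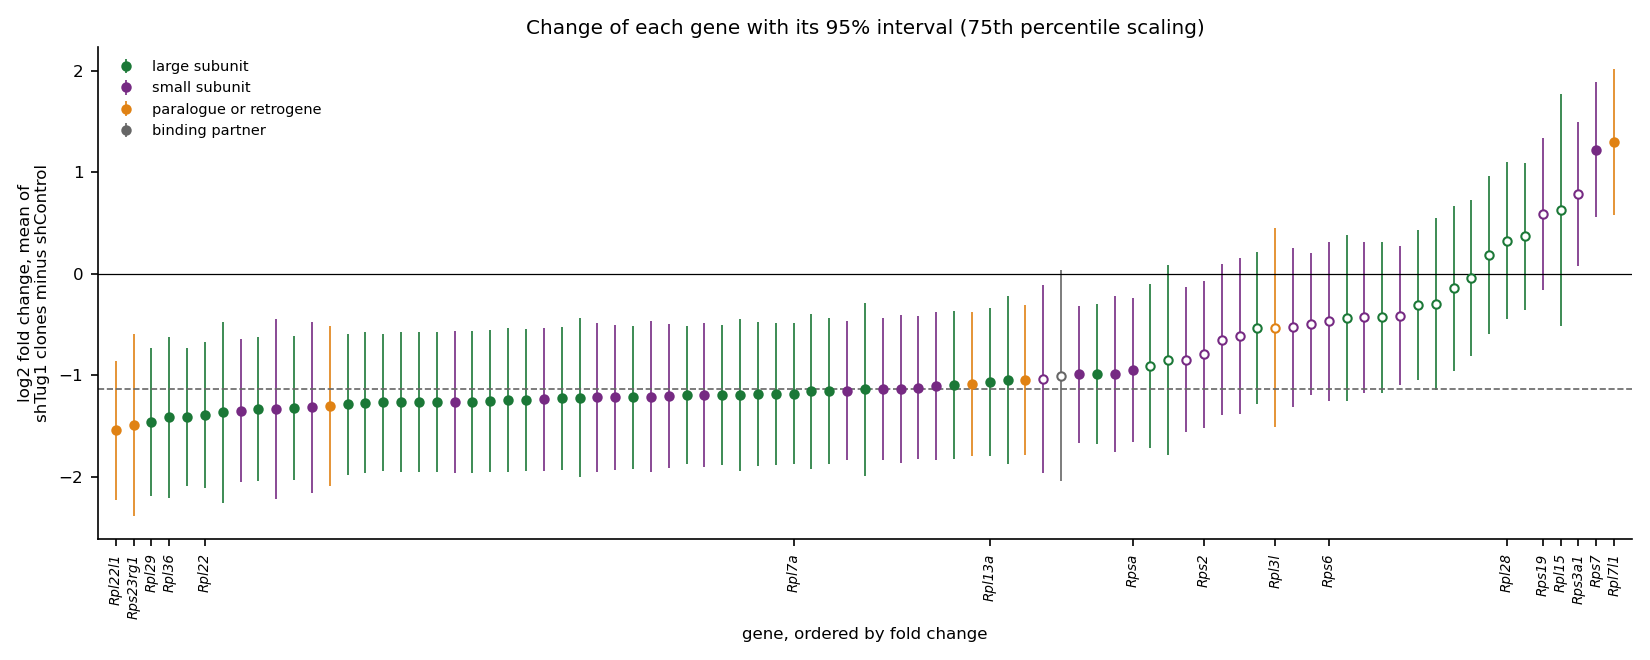
Log2 fold change of the mean of the shTug1 clones over shControl (vertical axis) with its 95% interval from limma for each of the 85 genes (horizontal axis, ordered by fold change), coloured by subunit; open circles have an adjusted p of 0.05 or more, and the dashed line is the median of the 85 genes, -1.14. Most genes lie close to the median, and the right end climbs to Rps7 (1.22) and Rpl7l1 (1.30).

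This fall depended on the scaling. With quantile normalization, which gives all arrays one distribution, 1 ribosomal protein gene fell (the retrogene Rps23rg1) and 8 rose, where 15.7% of all genes fell and 11.4% rose. The median was then -0.00 for ribosomal protein genes and -0.27 for all genes, so relative to all genes the ribosomal protein genes lay 0.50 lower on the first scale and 0.26 higher on the second. The values the authors deposited for the series, which have nearly equal distributions per array, gave 1 fall and 11 rises among the 84 ribosomal protein genes they hold, where 20.5% of all genes fell and 10.9% rose. The direction of the family as a whole thus differed between these scalings.

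**Figure D4:**
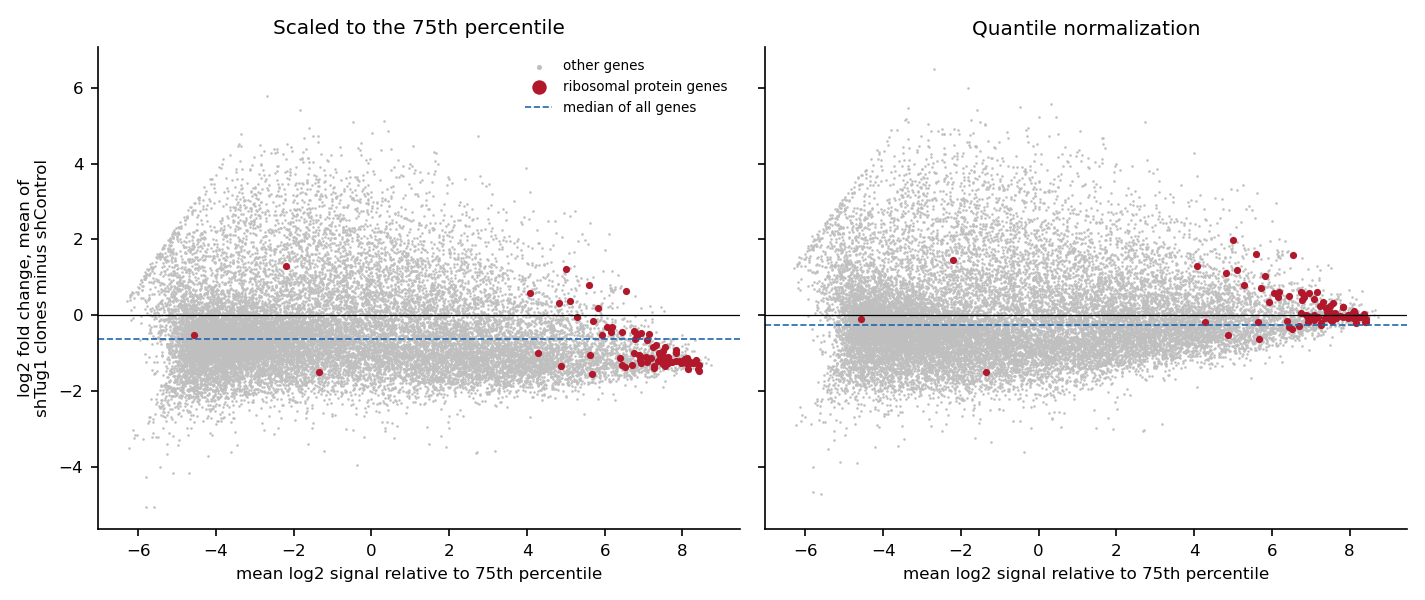
Log2 fold change of the mean of the shTug1 clones over shControl (vertical axis) against mean log2 level relative to the 75th percentile (horizontal axis) for all genes tested, with ribosomal protein genes in red and the median of all genes dashed; left, scaling to the 75th percentile, right, quantile normalization. The red points sit with the bright end of the cloud, at a median of -1.14 on the left and -0.00 on the right.

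Among large subunit genes, 33 of 46 (71.7%) fell and none rose relative to the 75th percentile, with a median log2 fold change of -1.19. Among small subunit genes, 18 of 31 (58.1%) fell and Rps7 rose, with a median of -1.04. Of all genes tested, 30.4% fell and 10.2% rose. Of the other genes in the brightest 10%, 58.6% fell, with a median of -1.10, so the small subunit share was close to theirs. The stalk proteins Rplp0, Rplp1 and Rplp2 recruit elongation factors to the ribosome. Rplp0 read 8.43 and 7.95 log2 units in clone 3, 7.68 and 7.78 in clone 2, and 9.30 and 8.99 in shControl, a change of -1.19 that passed (SE 0.30, adjusted p = 0.023). Rplp2 fell by 1.27 on the log2 scale (adjusted p = 0.0194). Rplp1 read 7.21 and 6.87 in clone 3, 6.29 and 6.26 in clone 2, and 7.53 and 6.86 in shControl, and its difference of -0.54 did not pass (adjusted p = 0.2). The clone 3 arrays lay within the shControl range for Rplp1 only among these stalk genes.

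The largest falls past the test were those of Rpl22l1, Rps23rg1, Rpl29 and Rpl36. Rpl29 and Rpl36 are large subunit proteins. Rpl29 read 8.48 and 8.04 log2 units in clone 3, 7.53 and 7.67 in clone 2, and 9.63 and 9.15 in shControl, a log2 fold change of -1.46 (standard error 0.31, adjusted p = 0.0168). Rpl36 read 8.22 and 7.78 in clone 3, 7.25 and 7.48 in clone 2, and 9.48 and 8.71 in shControl, a log2 fold change of -1.41 (standard error 0.34, adjusted p = 0.0205). For both, on these probes, all shTug1 arrays were below both shControl arrays, and clone 2 was the lowest group. A second, dimmer Rpl29 probe changed by -0.30 and did not pass (limma adjusted p = 0.463). The other Rpl36 probes fell by 1.33 and 1.60 (limma adjusted p = 0.0205 and 0.024). With quantile normalization the changes of the brightest probes were -0.17 for Rpl29 and -0.20 for Rpl36, and neither passed.

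Rps23rg1, a mouse retrogene of Rps23, read -1.98 and -2.03 log2 units in clone 3, -1.12 and -2.28 in clone 2, and -0.16 and -0.56 in shControl. Its log2 fold change was -1.49 with both scalings (adjusted p = 0.0236 relative to the 75th percentile and 0.0353 with quantile normalization). It was the one member that fell under both. Its parent gene Rps23, a protein of the decoding centre, read 7.20 and 6.85 in clone 3, 6.16 and 6.34 in clone 2, and 7.38 and 6.76 in shControl, and its difference of -0.43 did not pass (adjusted p = 0.289). Without clone 3 replicate 1, clone 3 replicate 2 or shControl replicate 1, the adjusted p of Rps23rg1 was 0.0708, 0.0858 and 0.103.

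Rps7 is a small subunit protein needed to process the small subunit's ribosomal RNA, and it binds Mdm2. It read 5.69 and 5.83 log2 units in clone 3, 5.18 and 4.94 in clone 2, and 4.27 and 4.09 in shControl. All 4 arrays labelled shTug1 lay above both shControl arrays, with clone 3 the highest group, and the log2 fold change was 1.22 (SE 0.29, adjusted p = 0.0192), a fold of 2.33. Rpl7l1, a paralogue of the large subunit protein Rpl7, read -1.87 and -1.97 in clone 3, -1.73 and -1.49 in clone 2, and -2.78 and -3.34 in shControl. Again no shTug1 array overlapped shControl, and the log2 fold change was 1.30 (SE 0.31, adjusted p = 0.0199), a fold of 2.46. With quantile normalization both rose further, Rps7 by 1.97 (adjusted p = 0.0143) and Rpl7l1 by 1.47 (adjusted p = 0.0165). Leaving out either clone 3 array ended both calls, with adjusted p of 0.0661 and 0.0855 for Rps7 and 0.0706 and 0.08 for Rpl7l1, and for Rps7 so did leaving out clone 2 replicate 1 (0.0585).

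Counting all genes of the family without a test, 58 of 85 had all 4 shTug1 arrays below both shControl arrays, where 43.1% of all genes tested did, and 3 had them above, where 12.3% did. The 3 were Rps7, Rpl7l1 and Rps3a1, and the other 24 overlapped. Rps3a1, a small subunit protein, read 6.10 and 6.11 log2 units in clone 3, 5.70 and 5.51 in clone 2, and 4.80 and 5.34 in shControl, and its change of 0.79 did not pass relative to the 75th percentile (adjusted p = 0.0707).

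Paralogue pairs were compared by their own changes. Rpl22 represses its paralogue Rpl22l1 in mouse cells. Rpl22l1 read 5.21 and 5.26 log2 units in clone 3, 5.08 and 5.05 in clone 2, and 6.92 and 6.46 in shControl, the largest fall of the family at -1.54 (SE 0.30, adjusted p = 0.0139). Rpl22 read 7.15 and 6.92 in clone 3, 6.60 and 6.56 in clone 2, and 8.51 and 7.90 in shControl, a log2 fold change of -1.39 (standard error 0.31, adjusted p = 0.0178). On these probes both members of the pair were lower on every shTug1 array. A second, dimmer Rpl22 probe read 2.37 and 2.58 in clone 3, 2.09 and 2.38 in clone 2, and 2.65 and 1.98 in shControl. Its change of 0.04 did not pass (limma adjusted p = 0.933). With quantile normalization the changes were -0.63 for Rpl22l1 and -0.25 for the brightest Rpl22 probe, and neither passed. Rpl36a and Rpl36al, a gene and its expressed retrogene copy, both fell, by log2 fold changes of -1.37 and -1.31 (adjusted p = 0.0292 and 0.0238). Rps27 and the p53-inducible Rps27l fell likewise, by -1.12 and -1.09 (adjusted p = 0.0261 and 0.0288).

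The pairs of Rpl7 and of Rpl3 behaved otherwise. Rpl7 read 7.47 and 7.06 log2 units in clone 3, 6.84 and 6.95 in clone 2, and 8.52 and 8.22 in shControl, a change of -1.29 that passed (SE 0.30, adjusted p = 0.0189), while Rpl7l1 rose. The 2 genes thus lay on opposite sides of shControl on these probes. A second Rpl7 probe fell by 1.11 (limma adjusted p = 0.0269). The other 2 Rpl7 probes changed by -0.76 and -0.19 and did not pass (limma adjusted p = 0.0764 and 0.659). With quantile normalization the brightest Rpl7 probe changed by -0.12 and did not pass, and Rpl7l1 still rose. Rpl3, at the peptidyl transferase centre, changed by -0.43 (adjusted p = 0.289). Its paralogue Rpl3l, known from heart and skeletal muscle, read -4.23 and -4.70 in clone 3, -4.93 and -5.08 in clone 2, and -3.52 and -4.89 in shControl, and its difference of -0.53 was within the spread of the shControl arrays (adjusted p = 0.321). Of genes whose paralogue was not tested, Rpl10, which joins the large subunit late in its assembly, fell by 1.32 (adjusted p = 0.0188), and Rpl39, at the peptide exit tunnel, fell by 1.16 (adjusted p = 0.0296). Rps4x, a small subunit protein, changed by -0.53 and did not pass (adjusted p = 0.222).

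The members best known for roles outside the ribosome were mixed. Rpl11 read 7.63 and 7.20 log2 units in clone 3, 6.77 and 6.84 in clone 2, and 8.65 and 8.23 in shControl, a change of -1.33 that passed (SE 0.31, adjusted p = 0.0186). Rpl5, its partner in binding Mdm2, read 6.46 and 6.53 in clone 3, 5.79 and 5.57 in clone 2, and 6.91 and 5.86 in shControl, with a difference of -0.30 (SE 0.36, adjusted p = 0.511). The shControl arrays lay further apart for Rpl5 than the groups did. Rpl13a, a translational repressor when released from the ribosome of human myeloid cells, fell by 1.07 on its brightest probe (adjusted p = 0.0324). Its other probes each changed by -0.07 and did not pass (limma adjusted p = 0.873 and 0.856). With quantile normalization the brightest Rpl13a probe was at -0.02 and the others were at 0.73. Rpsa, also known as the laminin receptor, fell by 0.95 on its brightest probe (adjusted p = 0.0413). Rps6, the small subunit protein that S6 kinases phosphorylate, read 7.27 and 6.97 in clone 3, 6.53 and 6.38 in clone 2, and 7.66 and 6.86 in shControl, and its difference of -0.47 did not pass (adjusted p = 0.275). Rps19 read 4.89 and 4.57 in clone 3, 4.14 and 3.50 in clone 2, and 3.78 and 3.59 in shControl, and its difference of 0.59 did not pass (adjusted p = 0.166).

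Differences among the members do not depend on a shift of a whole array, so each array was also scaled to its median ribosomal protein gene, a setting chosen after the data were seen. On that scale 8 of 85 genes rose in the mean of the clones and none fell, where 19.9% of all genes rose and 1.74% fell. Among the 8 were Rpl7l1, Rps7, Rps3a1, Rpl15, Rps19, Rpl28 and Rpl18, and the 8 that rose with quantile normalization were the same genes. All 8 were also among the 11 that rose in the deposited series values. Each of the 8 lay below the median ribosomal protein gene on every array. Scaling to a median does not remove a difference in range between arrays. The SD of levels across the 85 genes was 2.05 and 2.00 in clone 3, 1.92 and 2.03 in clone 2, and 2.26 and 2.36 in shControl. The part of this range in the rises was not tested. Their log2 fold changes relative to the family ran from 0.99 for Rpl18 to 2.33 for Rpl7l1. Rpl18, Rpl28 and Rpl15 are large subunit proteins, and they were named after their values were seen.

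Relative to the median ribosomal protein gene, Rps7 lay at -1.74 and -1.24 log2 units in clone 3, -1.42 and -1.80 in clone 2, and -4.04 and -3.57 in shControl, a change of 2.26 (SE 0.28, adjusted p = 0.016). Rps19 lay at -2.54 and -2.49 in clone 3, -2.46 and -3.24 in clone 2, and -4.54 and -4.07 in shControl, a change of 1.62 (SE 0.31, adjusted p = 0.0242). Rpl28 lay at -2.10 and -1.62 in clone 3, -1.99 and -2.36 in clone 2, and -3.30 and -3.46 in shControl, a change of 1.36 (SE 0.25, adjusted p = 0.0237). In each of these the shTug1 arrays of both clones lay above both shControl arrays. Calls on this scale also rested on the number of arrays: without shControl replicate 2 all 8 still passed, without shControl replicate 1 only Rps7, Rpl15 and Rpl7l1 did, without clone 3 replicate 1 only Rps7 and Rpl7l1 did, and without clone 3 replicate 2 or either clone 2 array none did, with adjusted p between 0.0583 and 0.112. In those fits the lowest of the 8 log2 fold changes was 0.93.

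The clones were compared with shControl one at a time, with the same shControl arrays in both comparisons. In clone 2, 61 of 85 genes fell relative to the 75th percentile and Rpl7l1 rose, where 33.8% of all genes fell and 10.2% rose. In clone 3, Rpl22l1 fell and Rps7 rose, where 4.68% of all genes fell and 4.35% rose. With quantile normalization, 5 genes of the family rose and none fell in clone 3, where 4.59% of all genes rose and 3.47% fell, and 6 rose and none fell in clone 2, where 10.4% rose and 16.4% fell. Scaled to the median ribosomal protein gene, 2 rose and none fell in clone 3, where 0.973% of all genes rose and 0.0699% fell, and 7 rose and none fell in clone 2, where 21.2% rose and 1.59% fell. The median log2 fold changes were -0.87 in clone 3 and -1.42 in clone 2, against medians over all genes of -0.46 and -0.80. The largest falls of clone 2 were those of Rps3, Rpl29, Rpl36 and Rpl36a. Rps3, a small subunit protein at the mRNA entry channel, read 5.32 and 4.73 log2 units in clone 3, 3.42 and 4.24 in clone 2, and 6.09 and 5.44 in shControl, a change in clone 2 of -1.93 (SE 0.44, adjusted p = 0.0171). The counts of falls in both clones changed when single arrays were left out, and the shares of all genes in those fits are not given here. The family median minus that of all genes ran from -0.68 to -0.51 in clone 2 with each array left out in turn. In clone 3 it ran from -0.54 to -0.27.

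Clone 3 against clone 2 is the comparison within 1 scan. No ribosomal protein gene passed in either direction (limma), where 0.345% of all genes were higher in clone 3 and 0.922% lower. At an unadjusted limma p under 0.05 there were 2 of 85, where there were 2557 of all 21473 genes tested. The 2 were Rps3 with a log2 difference of 1.20 (95% interval 0.17 to 2.23, adjusted p = 0.374) and Rps19 with 0.91 (0.05 to 1.77, adjusted p = 0.383). No gene of the family passed with quantile normalization (0.0931% of all genes higher and 0.196% lower), scaled to the median ribosomal protein gene (0.00466% and 0.14%), or in the deposited values. The differences were alike across the family: 83 of 85 were above 0 relative to the 75th percentile, with a median of 0.56 and an interquartile range of 0.20. For the other genes of the brightest 10% of genes the median was 0.60 and the interquartile range 0.33, and for all genes 0.38 and 0.75. The median difference became 0.04 with quantile normalization, where that of all genes was 0.20. For Rps7 the difference was 0.70 (95% interval -0.07 to 1.47), and for Rpl22l1 0.17 (-0.62 to 0.96).

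Replicates also differed from each other. Replicate 1 read higher than replicate 2 for 79 of 85 genes in clone 3, 27 in clone 2 and 82 in shControl, and the median differences, replicate 1 minus replicate 2, were 0.37, -0.07 and 0.47 log2 units. Over all genes tested these medians were 0.09 in clone 3, 0.03 in clone 2 and 0.53 in shControl. The shift in shControl was thus shared by all genes, while in clone 3 it was wider in the ribosomal protein genes than over all genes. Pooled over the family, the SD between replicates was 0.26 in clone 3, 0.18 in clone 2 and 0.45 in shControl, so shControl carried the widest spread.

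Probes of the same gene did not always move together. Of 51 genes with several probes above background on all 6 arrays, 22 had probes whose log2 fold changes for the mean of the clones differed by more than 1 relative to the 75th percentile. With quantile normalization 13 genes did, and 12 did on both scales. Tested probe by probe, with adjustment over all probes, 89 of 171 probes of the family fell and 10 rose, where 27.6% of all probes fell and 11.8% rose. Of the 86 tested probes that were not the brightest of their gene, 68 had a higher log2 fold change than the brightest one.

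**Figure D5:**
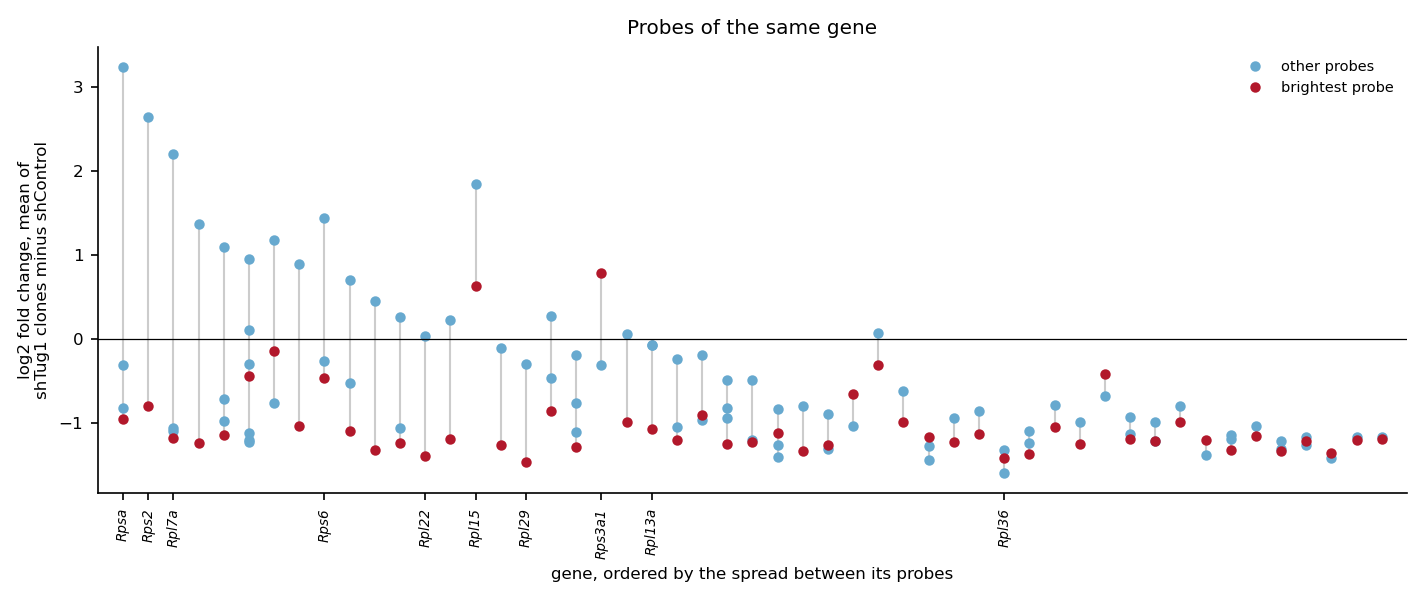
Log2 fold change of the mean of the shTug1 clones over shControl (vertical axis) for each probe above background on all 6 arrays, for genes with several such probes (horizontal axis, ordered by the spread between probes); red, the brightest probe, blue, the others. In Rpsa the probes run from -0.95 to 3.23, and towards the right the probes of a gene coincide.

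The widest disagreement was in Rpsa. Its brightest probe read 7.71 and 7.19 log2 units in clone 3, 6.88 and 6.98 in clone 2, and 8.26 and 8.02 in shControl. Another of its 4 probes read 0.90 and 1.51 in clone 3, 2.74 and 2.43 in clone 2, and -2.71 and 0.04 in shControl, a rise of 3.23 (SE 0.69, adjusted p = 0.0169). The direction for Rpsa is thus opposite on these 2 probes relative to the 75th percentile, while with quantile normalization they changed by 0.23, which did not pass, and 3.57. Rps2, a small subunit protein, had a brightest probe at -0.79, which did not pass, and a second probe that rose by 2.64 (SE 0.52, adjusted p = 0.0147), reading 6.13 and 6.35 in clone 3, 6.13 and 5.96 in clone 2, and 2.53 and 4.48 in shControl. In both, shControl replicate 1 read far below shControl replicate 2 on the rising probe. Rps6 differed from this: a second probe rose by 1.44 (SE 0.29, adjusted p = 0.0157) with 5.69 and 5.55 in clone 3, 5.05 and 4.68 in clone 2, and close values of 3.76 and 3.85 in shControl, while its brightest probe changed by -0.47 and the remaining one by -0.27.

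Of the genes that stood above the family, Rpl15 had 2 probes with changes of 0.63 and 1.84, and Rps3a1 had 2 with changes of 0.79 and -0.30, so the second probe of Rps3a1 did not share its direction relative to the 75th percentile, while with quantile normalization its 2 probes were at 1.61 and 0.52. In the remaining genes of the 22 (among them Rpl7a, Rpl27, Rpl31, Rpl17, Rpl21, Rps18, Rpl30, Rps15, Rpl22, Rpl8, Rpl14, Rpl29, Rpl26, Rpl7, Rps25 and Rpl13a), the spread between probes ran from 1.00 in Rpl13a to 3.38 in Rpl7a. Which transcripts or genomic copies each probe can bind was not analysed here, and near-identical retrocopies are common for ribosomal protein genes.

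Related gene lists were described beside the family, for the mean of the clones relative to the 75th percentile. On that scale 30.4% of all genes tested fell and 10.2% rose. Of 8 ribosome-associated and fusion genes, 4 fell and 1 rose. Fau, which encodes Rps30, fell by 1.28 on the log2 scale (adjusted p = 0.019). The ribosomal scaffold Rack1 fell by 1.17 (adjusted p = 0.0227) and the nascent chain factor Btf3 fell by 1.04 (adjusted p = 0.0354). Pabpc1, the poly(A)-binding protein, rose by 2.48 (SE 0.37, adjusted p = 0.00979). Of 8 translation elongation genes, 2 rose and 2 fell: Eef1g rose by 2.58 and Eef2, the translocase, by 1.03, while Eefsec, the selenocysteine factor, fell by 1.48 and Eef1d fell by 1.03. With quantile normalization Pabpc1, Eef1g and Eef2 still rose, Eefsec still fell, and Fau, Rack1, Btf3 and Eef1d did not pass.

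Of 66 tested ribosome biogenesis factors, 21 rose, 15 fell and 30 did not pass, with a median log2 fold change of -0.20, which lies 0.44 above that of all genes. With quantile normalization 24 of these factors rose and 3 fell, where 11.4% of all genes rose and 15.7% fell. Nop16 and Ddx47, nucleolar factors of ribosome assembly, rose by 4.26 and 3.63, each above background on 1 of 2 shControl arrays, while Wdr43 fell by 1.57 and Lsg1 fell by 1.56. Of 11 tested genes of RNA polymerase I transcription, Polr1b (2.22, above background on 1 of 2 shControl arrays) and Taf1c (1.62) rose and Top1 fell by 1.15. Top1 differed between the clones, with changes of -0.40 in clone 2 and -1.90 in clone 3. With quantile normalization its change of -0.64 did not pass (limma adjusted p = 0.221), while Polr1b and Taf1c still rose. Of 16 tested genes of mTORC1 signalling to ribosomal proteins, 3 rose and 4 fell: Mtor rose by 2.34 (SE 0.32, adjusted p = 0.00837), while Tsc1, an inhibitor of mTORC1, fell by 1.72 and Mxd1, a Myc antagonist, fell by 1.42. The other falls were those of Rptor, a subunit that mTORC1 requires, by 1.32 (adjusted p = 0.0449), and Max, the partner of Myc, by 1.13 (adjusted p = 0.0259). Rps6kb2, a ribosomal protein S6 kinase, rose by 1.07 (adjusted p = 0.0364). These 3 were named after their values were seen. With quantile normalization Rptor and Max did not pass (adjusted p = 0.0864 and 0.456). Akt1s1, the third gene counted as a rise, was above background on neither shControl array and is given no fold. Larp1, which binds pyrimidine-run mRNAs, changed by -0.11 and did not pass (adjusted p = 0.764).

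The mitochondrial ribosomal protein genes, which make the separate ribosome of mitochondria, are the closest comparison by function. Of 76 tested, 13 (17.1%) rose, 32 (42.1%) fell and 31 did not pass, with a median log2 fold change of -0.90. Of all genes, 10.2% rose and 30.4% fell, with a median of -0.64. Of the cytosolic genes 80 of 85 were in the brightest 10% of genes, and of these mitochondrial genes 26 of 76. The interquartile range of the log2 fold changes was 0.63 for the cytosolic and 1.43 for the mitochondrial genes, and for clone 3 against clone 2 it was 0.20 for the cytosolic and 0.37 for the mitochondrial genes. With quantile normalization 17 mitochondrial genes (22.4%) rose and 3 (3.95%) fell, where 11.4% of all genes rose and 15.7% fell. These figures are descriptions, and the difference between the 2 families was not tested.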

How the data were processed

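The submitters' processing notes name Agilent Feature Extraction 11.0.1.1 for the deposited scanner files, which give spot intensities of 6 one-colour arrays. Background was already subtracted in the processed signal, per the file headers. A deposited table of log2 values per probe for the series was used as an alternative; its normalization was not stated. Probes were named by transcript accession through a RefSeq table (27234 of 39429 matched). Each array was scaled by subtracting, on the log2 scale, its 75th percentile of processed signal over gene spots. Control and outlier-marked spots were left out, spots of a probe averaged, and probes needed to be well above background on every array of some group (25558 probes). Each gene kept its brightest probe, leaving 21473 genes.

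limma 3.58.1 in R 4.3.3 (plus data.table, version 1.17.8) fitted 3 group means over all 6 arrays (3 residual and 4.69 prior degrees of freedom), with two-sided tests; p-values were Benjamini-Hochberg adjusted across all genes, and 0.05 was the threshold. The fit was tested on simulated data. Every adjusted p comes from limma. An exact split of 4 against 2 arrays cannot go below a p of 0.0667, so single genes were not permuted, and 2 arrays per group limit the precision. Genes named were a fixed set of stalk, regulatory and paralogue genes, the 4 largest rises and 4 largest falls of each comparison, genes whose probes differed by over 1, and up to 2 rises and 2 falls per related list. Some genes that these rules take in are not reported here. The members, lists and rules were chosen with earlier results of these data known. Replicate numbers did not pair the arrays: the correlations of their deviations were -0.0888, 0.106 and -0.038. Alternatives were quantile normalization, normexp background correction (offset 50, on the median signal, since no mean signal was used here), other filters on dim probes, a replicate block, all probes in the adjustment, the deposited values, each array left out, and scaling to the median ribosomal protein gene.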

Additional observations from a re-analysis of the deposited data

How the results depend on the processing

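Counts are given here as genes that rose and genes that fell, out of 85, with 2 and 56 for the mean of the clones, 1 and 61 for clone 2, and 1 and 1 for clone 3 relative to the 75th percentile. Quantile normalization gave 8 and 1, 6 and 0, and 5 and 0, and the deposited values gave 11 and 1, 7 and 1, and 7 and 1. Scaling to the median ribosomal protein gene, chosen after the data were seen, gave 8 and 0, 7 and 0, and 2 and 0. Normexp gave 3 and 60, 2 and 65, and 5 and 27. With no filter on dim probes the clone 3 counts were 0 and 0, and with probes above background on all 6 arrays they were 1 and 4, with 2 rises in clone 2. With the replicate block, the counts were 2 and 55, 1 and 60, and 1 and 2. That block changed no other count by over 1.5 times. For normexp, the filters, the block and the single clones in the deposited values, the shares of all genes called are not given here. The counts of these settings therefore do not by themselves show whether the family differed from all genes. Clone 3 against clone 2 gave 0 and 0 in every fit run, also with only the 4 arrays labelled shTug1.

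The median of the family minus that of all genes was -0.50, -0.62 and -0.41 for the mean, clone 2 and clone 3, and 0.17 for clone 3 minus clone 2. It reversed to 0.26, 0.33, 0.21 and -0.16 with quantile normalization and to 0.30, 0.36, 0.24 and -0.17 with the deposited values. With normexp it was -0.24, -0.31 and -0.15. The cause of these differences was not tested.

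Leaving out each array in turn gave 0 to 3 rises and 0 to 72 falls for the mean, 0 to 3 and 1 to 77 for clone 2, and 0 to 3 and 0 to 58 for clone 3. The medians ran from -0.56 to -0.42, from -0.68 to -0.51, from -0.54 to -0.27, and from 0.04 to 0.31 for clone 3 minus clone 2. Scaled to the median ribosomal protein gene, it gave 0 to 9 rises and 0 falls. Fewer arrays also leave fewer degrees of freedom. For the single clones, the shares of all genes called in these fits are not given here, so their counts do not single out the family.

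For the mean, 33 of 85 ribosomal protein genes turned from negative to positive with quantile normalization, 24 of 85 scaled to the family and 35 of 84 with the deposited values, and 0 turned the other way. Genes that changed sign are named here only from the fixed set, the largest rises and falls and the genes picked by rule from related lists. Others, such as Rps23, Rps2 and Rpl17, are only counted. Quantile normalization gave Rplp0 (0.03), Rplp1 (0.49), Rpsa (0.23), Rps6 (0.60), Rpl5 (0.62), Rpl3 (0.51), Rps4x (0.36), Rps27 (0.10), Rps27l (0.09) and Rack1 (0.01). The deposited values gave Rplp0 (0.02), Rplp1 (0.51), Rpsa (0.24), Rps6 (0.61), Rpl5 (0.65), Rpl3 (0.54), Rps4x (0.39), Rps27 (0.10), Rps27l (0.10) and Rack1 (0.01). Scaling to the family gave, from the same genes, Rplp1 (0.50), Rpsa (0.08), Rps6 (0.57), Rpl5 (0.74), Rpl3 (0.60), Rpl3l (0.50) and Rps4x (0.51). Leaving out shControl replicate 1 or 2 gave 0.23 and -0.82 for Rpl5 and 0.15 and -1.21 for Rpl3l. Scan as a block could not be fitted against shControl.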
